A study of Mus musculus with 8 samples.

Results

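The genes described here are 8 markers of regenerating intestinal epithelium and of the response to the coactivator YAP: Clu, Ly6a, Anxa1, Anxa2, Yap1, Ccn1 (older name Cyr61), Ccn2 (older name Ctgf) and Ankrd1. Probes were taken by gene symbol alone, older or current, and every probe that carried a member's symbol was kept. The list of genes itself was drawn up with earlier results of these data known. The array table held 10 such probes among 25697, for 7 of the 8 members, and no listed probe for Ly6a. Of these, 8 probes of 7 members were bright enough to be tested. Total RNA was measured on Illumina MouseRef-8 v2 arrays, which read each probe as a fluorescence intensity. The 4 groups were colon tumors of caspase-12 deficient mice (C12-T), their normal colon (C12-N), colon tumors of wild-type mice (WT-T) and their normal colon (WT-N), all labelled strain C57BL/6, with 2 arrays per group. The design sets tumor against normal colon with and without caspase-12, an inflammatory caspase. The sources used here do not say how the tumors arose, how old the mice were or where along the colon samples were taken.

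When the intestinal lining is injured, surviving epithelial cells leave their usual programme and switch on genes otherwise seen in the fetal gut. YAP, encoded by Yap1, is a coactivator held in the cytoplasm by the Hippo kinases. In injured and regrowing mouse intestine it enters the nucleus, binds transcription factors of the TEAD family and switches on targets such as Ccn1, Ccn2 and Ankrd1. Clusterin (Clu) marks revival stem cells, Ly6a (Sca-1) marks repairing colonic epithelium in mouse colitis, and Anxa1 belongs to the same fetal-like programme.

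Promoter windows are shown because the YAP targets are switched on through TEAD sites, and 4 members held the core TEAD letters near their start. The windows run from 250 bases before to 50 bases after the annotated start, from RefSeq (GRCm38.p6), and 5 members had one in the table used. The letters GGAATG, read on either strand so that CATTCC also counts, are in capitals. All 4 genes lie on the minus strand and are written 5′ to 3′ in the direction of transcription.
Yap1 (chr9:8004547-8004846): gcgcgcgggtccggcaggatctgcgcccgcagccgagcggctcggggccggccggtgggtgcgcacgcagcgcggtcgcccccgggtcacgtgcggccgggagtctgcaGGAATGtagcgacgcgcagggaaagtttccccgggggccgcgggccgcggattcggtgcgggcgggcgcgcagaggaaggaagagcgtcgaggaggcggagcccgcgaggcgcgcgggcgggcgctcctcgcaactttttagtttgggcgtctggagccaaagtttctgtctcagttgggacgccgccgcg
Ccn1 (chr3:145649936-145650235): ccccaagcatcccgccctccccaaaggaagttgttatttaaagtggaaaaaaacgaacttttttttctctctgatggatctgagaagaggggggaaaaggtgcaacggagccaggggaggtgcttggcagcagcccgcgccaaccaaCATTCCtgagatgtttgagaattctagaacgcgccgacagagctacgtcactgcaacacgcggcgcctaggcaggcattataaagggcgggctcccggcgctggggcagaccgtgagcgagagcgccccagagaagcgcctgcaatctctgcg
Ankrd1 (chr19:36119795-36120094): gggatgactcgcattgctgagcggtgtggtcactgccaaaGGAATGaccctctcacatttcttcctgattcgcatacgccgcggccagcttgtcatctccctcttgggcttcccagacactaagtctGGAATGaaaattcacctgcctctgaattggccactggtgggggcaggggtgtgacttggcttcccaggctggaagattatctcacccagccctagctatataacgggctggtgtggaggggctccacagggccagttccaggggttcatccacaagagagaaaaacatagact
Anxa1 (chr19:20390622-20390921): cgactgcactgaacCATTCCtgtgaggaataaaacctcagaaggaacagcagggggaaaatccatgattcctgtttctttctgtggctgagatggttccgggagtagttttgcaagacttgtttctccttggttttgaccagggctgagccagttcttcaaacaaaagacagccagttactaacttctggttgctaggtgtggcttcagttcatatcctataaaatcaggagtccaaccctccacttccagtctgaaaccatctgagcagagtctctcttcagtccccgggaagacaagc

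The TEAD letters began 141 bases before the start in Yap1, 103 before it in Ccn1, 210 and 123 before it in Ankrd1, and 236 before it in Anxa1. They are common: 14.7% of the 32851 promoter windows of the same length held them. The Anxa2 window held none, but held the AP-1 letters TGANTCA 95 bases before the start, as did 7.81% of all windows. The CArG box, read by serum response factor, was in none of the 5 windows and in 1.63% of all. No member window held more than 1 kind of these motifs, and a match is a description of letters, not of binding.

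A probe was taken as above background where its detection p was under 0.01, which held for 43.7% to 49.1% of probes per array. The mean intensity per array was between 1113 and 1182, and the number of arrays limits the precision. Nothing in the labels says that replicates are separate animals, so the spread behind the p-values is that between these samples and may be technical. All 8 measured colon epithelial markers were above background on every array. The second wild-type tumor array correlated with the wild-type normal arrays at r = 0.972 and 0.973 across probes, and with the first wild-type tumor array at 0.945. Stratified squamous markers, taken as a list, were high on 3 tumor arrays. Of 10 markers, 9 were above background on the first deficient tumor, 10 on the second and 9 on the first wild-type tumor. On every other array 1 or 2 were, with Krt14 among them each time. Over 10 skeletal muscle markers the mean log2 difference from wild-type normal colon was 7.00 on the first deficient tumor, 2.60 on the first wild-type tumor and at most 0.60 elsewhere. The Casp12 probe was above background on 2 of 4 deficient and 0 of 4 wild-type arrays. The sources used here do not place it relative to the deletion, so it does not check the labels.

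In caspase-12 deficient mice, Clu, Anxa1, Yap1 and 1 of 2 tested Ccn1 probes were higher in tumors than in normal colon. These were 4 of the 8 member probes tested, at an adjusted p under 0.05 in limma over all probes. Among all 13327 probes tested, 8.7% were called higher and 10.7% lower in this comparison. The other 4 probes, for Anxa2, Ccn1, Ccn2 and Ankrd1, had positive differences that did not pass. The called Ccn1 probe entered the test only because it was above background in the deficient tumors. Both tumor arrays lay above both normal arrays for all 8, as for 30.2% of all probes. In wild-type mice no member was called between tumor and normal colon, and neither was any other probe (0%). The unadjusted p in limma was under 0.05 for 1154 probes, among them the member probes of Clu and Ccn2, for which both wild-type tumors lay above both normal samples, as for 22.4% of all probes. In deficient mice the count of 4 was 1 without either deficient normal array and 2 without the second deficient tumor.

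**Figure D1:**
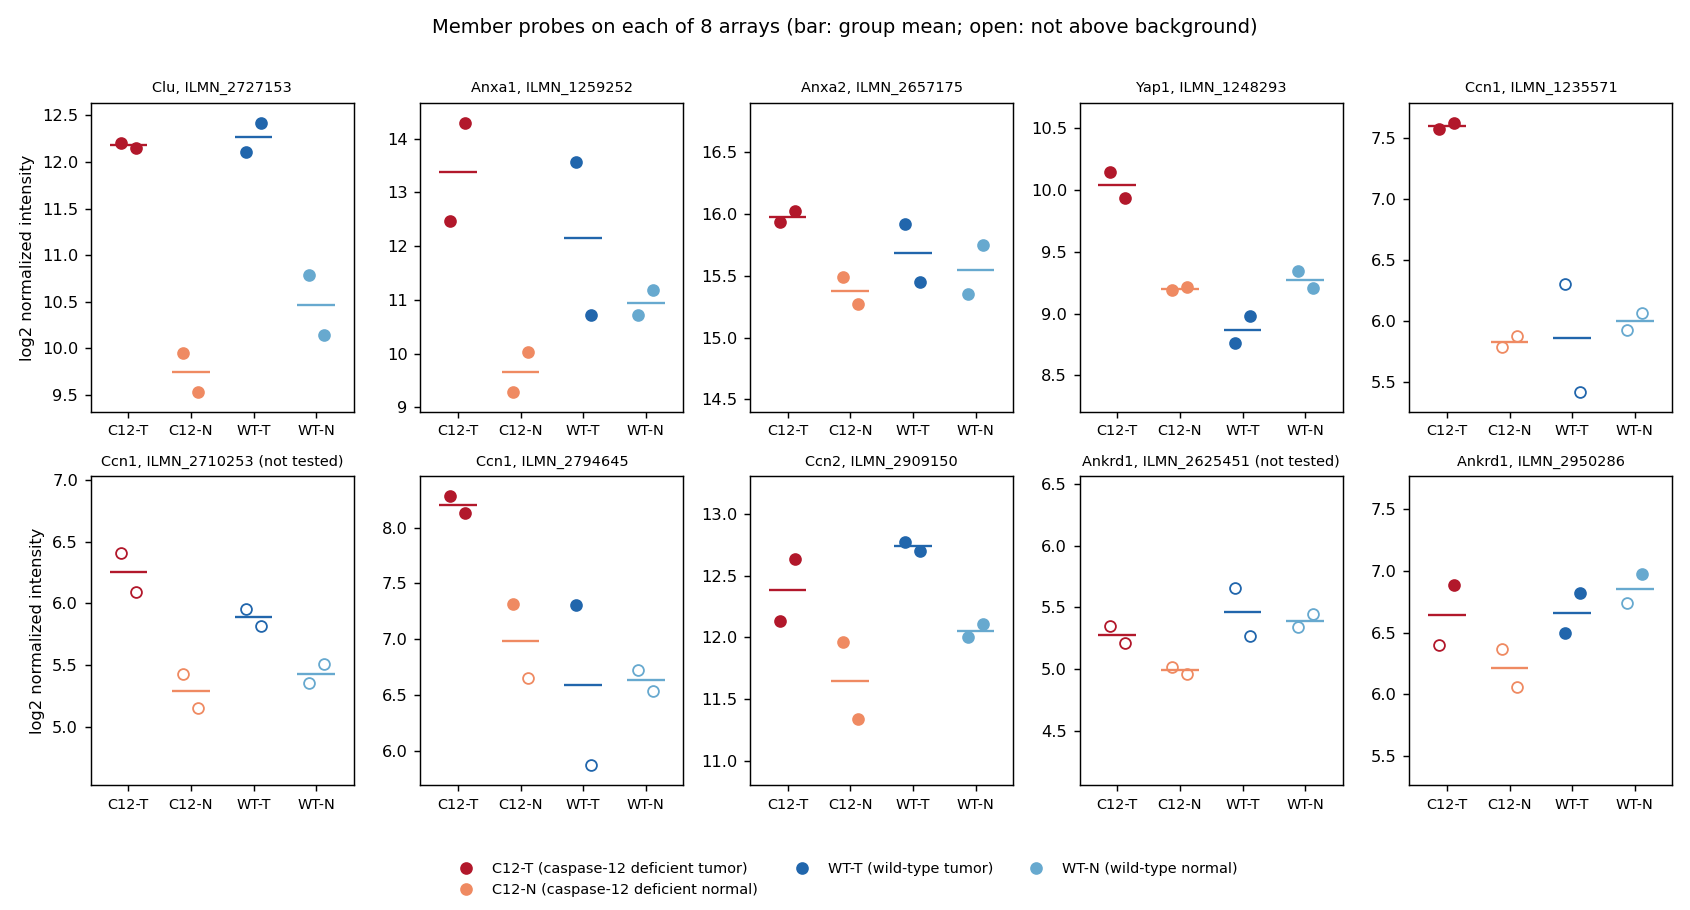
Log2 normalized intensity of each of the 10 member probes on the 8 arrays, by group (C12-T, C12-N, WT-T, WT-N), with a bar at each group mean of 2 arrays. Filled points are above background and open points are not. Clu is high in all 4 tumors, Yap1 in the deficient tumors, and Anxa1 on 3 of the 4 tumor arrays.

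**Figure D2:**
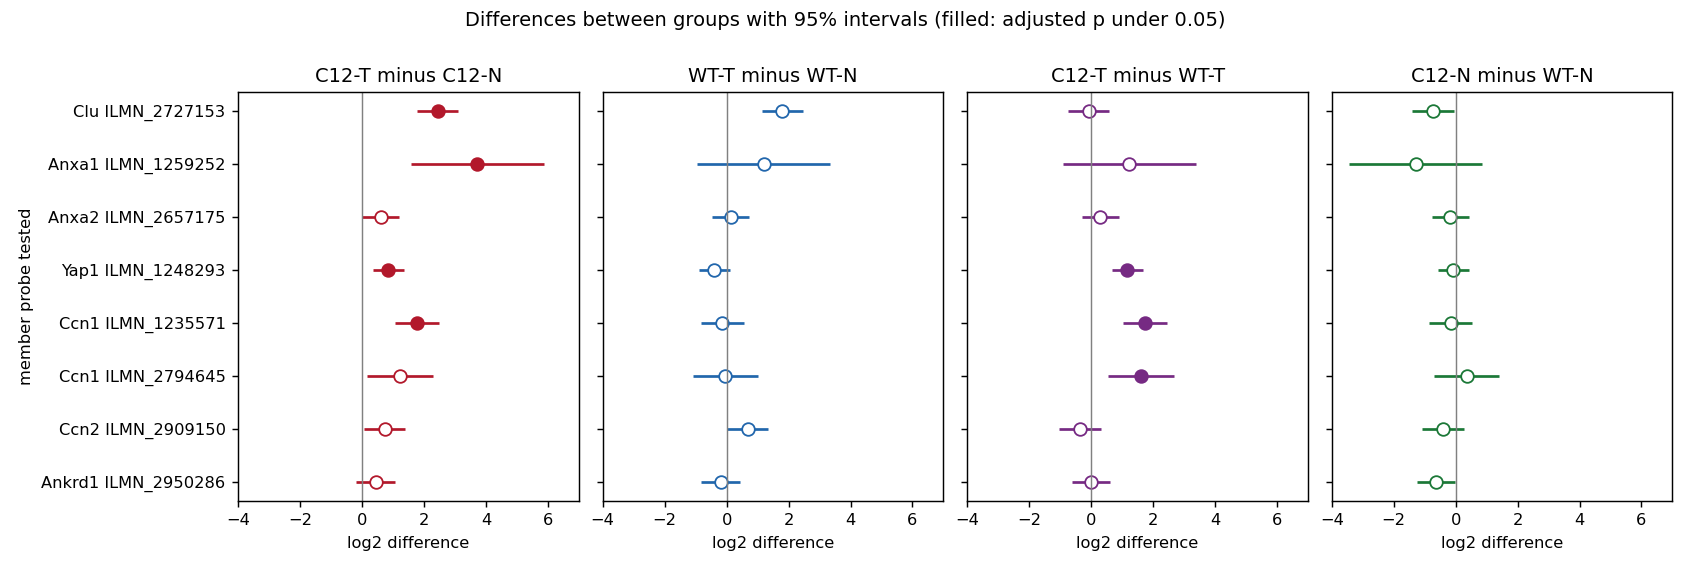
Log2 differences of the 8 tested member probes in 4 comparisons, with 95% intervals, where filled points passed an adjusted p under 0.05. Clu lies well above 0 in tumor minus normal colon of both genotypes, and passed in deficient mice only. Yap1 and both Ccn1 probes lie above 0 between deficient and wild-type tumors.

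Clu, a secreted chaperone, was high in every tumor. Its probe (ILMN_2727153, gene at chr14:65968483-65981548) read 12.21 and 12.15 log2 units in deficient tumors and 9.95 and 9.53 in deficient normal colon. It read 12.11 and 12.42 in wild-type tumors, with 10.79 and 10.15 in wild-type normal colon. All 4 tumors lay above all 4 normal samples, as for 3.95% of all probes. In deficient mice the tumor level was 5.42-fold higher (log2 difference 2.44, SE 0.288, adjusted p = 0.00227). That call held in all 18 alternatives, which changed 1 processing setting or left out 1 array, with differences from 2.23 to 2.65. In bulk tissue, a change in the number of cells of a type and a change in RNA per cell cannot be told apart.

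In wild-type mice the Clu difference was 1.80 (95% interval 1.13 to 2.47), in a comparison where no probe passed (adjusted p = 0.149). Over both genotypes together, a comparison added after the values were seen, Clu was 4.34-fold higher in tumors (log2 difference 2.12, SE 0.203, adjusted p = 0.00283). In that comparison 5.43% of all probes were called higher. Deficient and wild-type tumors overlapped in Clu, with a difference of −0.09 (95% interval −0.76 to 0.59). Both deficient normal samples lay below both wild-type normal samples, by a difference of −0.73 (95% interval −1.40 to −0.06) that did not pass (adjusted p = 0.248).

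Anxa1, a phospholipid-binding protein that helps to resolve inflammation and close mucosal wounds, was high on 3 of the 4 tumor arrays. Its probe (ILMN_1259252, gene at chr19:20373434-20390671) read 12.47 and 14.29 in deficient tumors and 9.29 and 10.03 in deficient normal colon. It read 13.57 and 10.72 in wild-type tumors, with 10.71 and 11.19 in wild-type normal colon. The first wild-type tumor was thus high and the second lay within the range of wild-type normal colon. In deficient mice the tumor level was 13.2-fold higher (log2 difference 3.72, SE 0.919, adjusted p = 0.0294), with a wide interval of 1.58 to 5.86. The call was lost without either deficient normal array (adjusted p = 0.147 and 0.105), without the second deficient tumor (0.1) and with no filter on dim probes (0.0809). In wild-type mice the difference was 1.20 (95% interval −0.95 to 3.34, adjusted p = 0.657), and −0.23 without the first wild-type tumor.

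The 3 tumor arrays with high Anxa1 were the 3 with high squamous markers. Over the 10 squamous markers tested, the mean log2 difference from wild-type normal colon was 4.73 and 7.19 in deficient tumors and −0.18 and −0.06 in deficient normal colon. It was 4.32 and −0.16 in wild-type tumors. In deficient tumors 6 of the 10 rose and none fell, where 8.7% of all probes were called higher and 10.7% lower. Of the 10, Sprr3 was above background in the deficient tumors alone. Krt5, Krt6a, Trp63, Dsg3, Krtdap and Rptn were above background on tumor arrays alone. These and Sprr3 entered the test only through tumors, where they are high, so the count is a description. Of the defining markers, the basal keratin Krt14 was above background on all 8 arrays, at 14.89 and 16.01 in deficient tumors and 8.23 and 8.82 in deficient normal colon, and at 15.91 and 9.38 in wild-type tumors, with 10.79 and 8.35 in wild-type normal colon. The basal cell factor Trp63 was above background on those 3 tumor arrays and on none of the other 5. The part of squamous tissue in the Anxa1 difference was not tested.

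Anxa2, which binds S100a10 at cell membranes, lay near the top of the measurable range. Its probe (ILMN_2657175, gene at chr9:69453683-69491792) read 15.94 and 16.03 in deficient tumors and 15.49 and 15.27 in deficient normal colon. It read 15.92 and 15.45 in wild-type tumors, with 15.35 and 15.75 in wild-type normal colon. The deficient tumors lay above the deficient normal samples and the wild-type groups overlapped. The difference was 0.60 in deficient mice (95% interval 0.00 to 1.20, adjusted p = 0.148) and 0.13 in wild-type mice (adjusted p = 0.87), where it turned to −0.19 with median scaling. Before normalization its intensity on the second deficient tumor array was 66090, close to the brightest probe of that array at 66882.

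Beyond these members, 9 annexins and annexin partners of a wider list were tested, and 4 rose and 1 fell in deficient tumors. Their median difference was 0.61, against −0.02 over all probes, of which 8.7% were called higher and 10.7% lower. Anxa8 rose at least 31.7-fold, Anxa3 by 1.86, Anxa9 at least 1.53-fold and Anxa5 by 0.76. Anxa9 was above background in the deficient tumors alone, so it entered the test only through the group where it is high. An "at least" fold sets a group that is below background on all its arrays at the lowest signal called above background. Anxa13, an annexin of the gut epithelium, was at least 1.90-fold lower (adjusted p = 0.0178). The count of rises was 2 without either deficient normal array, without the second deficient tumor, with only the groups compared and with only probes detected on all arrays. The Anxa13 call was lost with only the groups compared and without the second deficient normal array or the first deficient tumor.

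Ly6a had no listed probe, so only its relatives could be read, and 4 of 7 Ly6 family genes on the array were tested. Ly6d, which marks stratified and some fetal-like epithelium in mouse, and Ly6e rose in deficient tumors, and Ly6h fell. Among all probes, 8.7% were called higher and 10.7% lower there. Ly6d read 11.71 and 13.60 in deficient tumors and 6.72 and 6.75 in deficient normal colon, against 11.56 and 9.36 in wild-type tumors, with 9.06 and 9.38 in wild-type normal colon. Its difference in deficient mice was 5.92 (SE 0.776, adjusted p = 0.00329). It was highest on the 3 tumor arrays with high squamous markers, and the part of squamous tissue was not tested. Ly6e differed by 1.83 (adjusted p = 0.0197), a call lost with only the groups compared and without either deficient normal array or the first deficient tumor. Ly6h, at least 1.39-fold lower in deficient tumors (adjusted p = 0.0123), was above background only in deficient normal colon, at least 1.05-fold over wild-type normal colon (adjusted p = 0.0207). Both Ly6h calls were lost without background correction and with the deposited series values. The first was also lost without the second deficient normal array or the first deficient tumor, and the second without any 1 normal array.

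Yap1 read highest in the deficient tumors. Its probe (ILMN_1248293) read 10.15 and 9.94 in deficient tumors and 9.19 and 9.21 in deficient normal colon. It read 8.76 and 8.98 in wild-type tumors, with 9.34 and 9.21 in wild-type normal colon. Both deficient tumors lay above all other arrays, and both wild-type tumors lay below all other arrays. The deficient tumors lay above deficient normal colon for 30.2% of all probes and above wild-type tumors for 28%. The share that lay above all other arrays was not counted. The deficient tumor level was 1.79-fold that of deficient normal colon (log2 difference 0.84, SE 0.213, adjusted p = 0.0322). It was 2.25-fold that of wild-type tumors (log2 difference 1.17, SE 0.213, adjusted p = 0.0129). The 2 normal groups overlapped, with a difference of −0.07 (95% interval −0.57 to 0.42).

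The adjusted p of the tumor difference of Yap1 was close to the threshold. The difference stayed between 0.73 and 0.95 in all 18 alternatives, but the call was lost without either wild-type normal array (adjusted p = 0.0635 each), either deficient normal array (0.117 each), the first or second deficient tumor (0.14 and 0.0564) or when only the groups compared were fitted (0.071). Against wild-type tumors the difference stayed between 1.01 and 1.28, and the call was lost without the first deficient tumor (0.0599) and with only the groups compared (0.0658). In wild-type mice both tumors lay below both normal samples, as for 23.3% of all probes, by a difference of −0.40 (95% interval −0.90 to 0.09, adjusted p = 0.573). The test of unequal tumor differences in the 2 genotypes gave 1.24 (SE 0.301) and did not pass (adjusted p = 0.0659). Yap1 (chr9:7931999-8004638) lies 2.59 Mb from Casp12 on chromosome 9, between their lower coordinates.

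Of 9 tested genes of the Hippo pathway, which restrains or partners YAP, Tead2 and Wwtr1 rose in deficient tumors and none fell. The median difference of the 9 was 0.31, against −0.02 over all probes, of which 8.7% were called higher and 10.7% lower. Tead2, a DNA-binding partner of YAP, read 11.33 and 10.24 in deficient tumors and 8.15 and 8.33 in deficient normal colon. In wild-type mice the values were 7.21 and 7.33 in tumors, 8.88 and 8.11 in normal colon. Like Yap1, it was high in deficient tumors and lowest in wild-type tumors. It was 5.86-fold higher in deficient tumors than in deficient normal colon (log2 difference 2.55, SE 0.399, adjusted p = 0.0061) and 11.5-fold higher than in wild-type tumors (adjusted p = 0.00398). Both calls held in all 18 alternatives. Its tumor differences in the 2 genotypes were unequal by 3.78 (SE 0.565, adjusted p = 0.018), although that call was lost without the first wild-type normal array, either deficient normal array or either wild-type tumor (highest adjusted p = 0.0926).

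Wwtr1, which encodes the YAP relative TAZ, was near background. It was above background on all tumor arrays of both genotypes and on no normal array. It thus passed the filter only through the tumors, where it is high. It read 6.59 and 6.71 in deficient tumors and 5.73 and 5.90 in deficient normal colon, and 6.72 in both wild-type tumors and 5.71 and 6.09 in wild-type normal colon. Its difference of 0.84 in deficient mice (adjusted p = 0.0392) was lost in 11 of 17 alternatives and gives no bound above 1. The wild-type difference was 0.82 (adjusted p = 0.413). Vgll4, which competes with YAP for TEAD and was named after its values were seen, read 10.03 and 9.30 in deficient tumors, against 8.00 and 8.60 in wild-type tumors. It was 2.58-fold higher in the deficient tumors (adjusted p = 0.0347), a call lost in 8 of 18 alternatives.

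Ccn1 and Ccn2 are secreted matrix proteins and the most used readouts of YAP and TEAD. Ccn1 (gene at chr3:145646971-145649985) had 3 probes, and the 2 tested gave the same order of groups at the top. The probe ILMN_1235571 read 7.58 and 7.63 in deficient tumors and 5.78 and 5.88 in deficient normal colon. It read 6.31 and 5.42 in wild-type tumors, with 5.93 and 6.07 in wild-type normal colon. It was above background in the deficient tumors alone, so it passed the filter only through the group where it is high. There it was at least 1.73-fold higher than in deficient normal colon (log2 difference 1.77, SE 0.303, adjusted p = 0.00831) and at least 2.08-fold higher than in wild-type tumors (adjusted p = 0.011). The first call was lost without either deficient normal array (adjusted p = 0.0576 and 0.0543), and the second with only the groups compared (0.0586).

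The Ccn1 probe ILMN_2794645 read 8.28 and 8.13 in deficient tumors and 7.31 and 6.66 in deficient normal colon. It read 7.31 and 5.87 in wild-type tumors, with 6.73 and 6.54 in wild-type normal colon. The deficient tumors were again the highest 2 arrays, but the spread of the other groups was wider. The difference in deficient mice was 1.22 (SE 0.454, adjusted p = 0.101), which passed only without either wild-type tumor (0.0285 each). Against wild-type tumors it was 3.07-fold higher (log2 difference 1.62, adjusted p = 0.046), a call lost in 11 of 17 alternatives, among them without the second wild-type tumor (difference 0.90, adjusted p = 0.131). The third Ccn1 probe, ILMN_2710253, was below background on all 8 arrays and was not tested.

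Ccn2 read higher in tumors of both genotypes, by amounts that did not pass. Its probe (ILMN_2909150, gene at chr10:24595442-24598683) read 12.13 and 12.63 in deficient tumors and 11.96 and 11.34 in deficient normal colon. It read 12.77 and 12.70 in wild-type tumors, with 12 and 12.11 in wild-type normal colon. All 4 tumors lay above all 4 normal samples, as for 3.95% of all probes, although the lowest tumor (12.13) was close to the highest normal sample (12.11). The differences were 0.74 in deficient mice (95% interval 0.07 to 1.40, adjusted p = 0.114) and 0.69 in wild-type mice (95% interval 0.02 to 1.35, adjusted p = 0.568). Over both genotypes the difference was 0.71 (SE 0.202, adjusted p = 0.0609), and it passed without background correction (0.0464), with the deposited series values (0.0424) and with only probes detected on all arrays (0.0483). Between deficient and wild-type tumors it was −0.36 (95% interval −1.02 to 0.31). Ccn1 thus read high in the deficient tumors and Ccn2 in tumors of both genotypes, a contrast between the genes that was not tested.

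Fibroblasts are a major source of Ccn2 in tissue. Over 9 fibroblast markers the mean difference from wild-type normal colon was 0.26 and 1.24 in deficient tumors and 0.06 and −0.01 in deficient normal colon, and 0.95 and 0.57 in wild-type tumors. Of these 9 markers 2 rose in deficient tumors and none fell, where 8.7% of all probes were called higher and 10.7% lower. None was called in wild-type tumors, where no probe passed (0%). All 9 were above background on all arrays but 1, on which 8 were. Their part in the Ccn2 difference was not tested.

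Ankrd1, a nuclear and sarcomeric ankyrin-repeat protein and a YAP target in mouse cells, stayed near background. Its tested probe (ILMN_2950286, gene at chr19:36111965-36119844) read 6.40 and 6.89 in deficient tumors and 6.36 and 6.06 in deficient normal colon. It read 6.50 and 6.82 in wild-type tumors, with 6.74 and 6.97 in wild-type normal colon. It was above background on 1 of 2 deficient tumors, 0 of 2 deficient normal samples, 2 of 2 wild-type tumors and 1 of 2 wild-type normal samples. The differences were 0.44 in deficient mice (95% interval −0.18 to 1.05, adjusted p = 0.287) and −0.20 in wild-type mice (95% interval −0.82 to 0.42, adjusted p = 0.801). A change was not detectable at this signal. The other probe, ILMN_2625451, was below background on all 8 arrays and was not tested.

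A wider list of YAP target genes did not move one way. Of 11 tested, 3 rose in deficient tumors, against 8.7% of all probes, 1 fell, against 10.7%, and 7 did not pass. The median difference of the 11 was −0.03, against −0.02 over all probes. The risers were Nt5e (1.74, adjusted p = 0.0072), the surface enzyme that makes adenosine, Ccdc80 (1.37, adjusted p = 0.0248) and the receptor kinase Axl (0.84, adjusted p = 0.0352). The growth arrest gene Gadd45a fell by 1.18 (adjusted p = 0.0326). Nt5e was low in deficient normal colon, at 10.16 and 10.58 against 13.29 and 13.30 in wild-type normal colon, a difference of −2.93 (SE 0.284, adjusted p = 0.00438). In tumors it read 12.16 and 12.05 in deficient against 14.03 and 13.35 in wild-type mice (−1.58, adjusted p = 0.0123, and 0.0559 with only the groups compared). No deficient normal array lay within the range of any other group. Without the first or second deficient normal array the count of rises was 0 or 1, and without any single deficient or wild-type normal array, or deficient tumor, the fall of Gadd45a did not pass. Between tumors, 1 of the 11 was called higher in deficient mice and 1, Nt5e, lower, against 7.6% and 10.9% of all probes. The higher one was Rbms3 (2.19, limma adjusted p = 0.0216), named after its values were seen, a call lost in 4 of 18 alternatives.

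**Figure D3:**
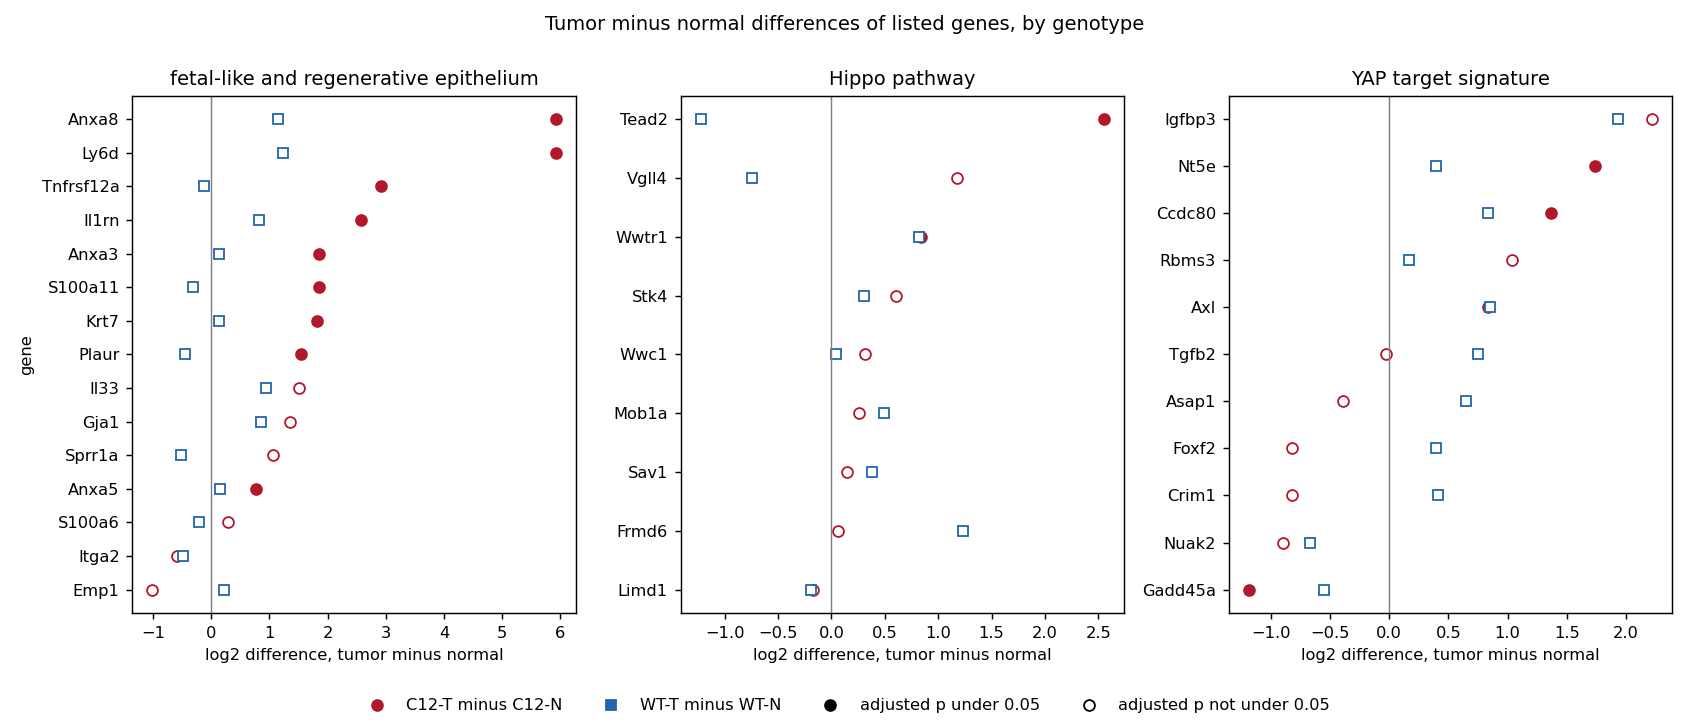
Tumor minus normal log2 differences of the tested genes of 3 lists in deficient (circles) and wild-type mice (squares), where filled points passed an adjusted p under 0.05. In the regenerative list 9 of 15 circles are filled, and no square is filled in any list.

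Of 15 tested genes of the fetal-like and regenerative epithelium that are not members, 9 rose in deficient tumors and none was called lower. Anxa3, Anxa5, Anxa8 and Ly6d among the 9 were also counted in the annexin and Ly6 lists above, so these counts are not separate. The median difference of the 15 was 1.55, against −0.02 over all probes, of which 8.7% were called higher and 10.7% lower. Genes of this list other than the 4 with the largest differences were named after their values were seen. Those 4 were Anxa8, Ly6d (given above), Tnfrsf12a and Il1rn. Tnfrsf12a, the receptor of the injury cytokine TWEAK, was 7.60-fold higher (log2 difference 2.93, SE 0.249, adjusted p = 0.000771), and Il1rn, the antagonist of the interleukin 1 receptor, 5.95-fold (2.57, SE 0.326, adjusted p = 0.00291). The other 5 were Anxa3, S100a11 (1.85), Krt7 (1.81), the urokinase receptor Plaur (1.55) and Anxa5. The count stayed between 6 and 10 when any 1 array was left out and between 7 and 10 under the other settings. Of the 6 that did not pass, the alarmin Il33 differed by 1.51 (adjusted p = 0.0723), the gap junction gene Gja1 by 1.35 (0.0804) and Emp1 by −1.01 (0.346).

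For 3 of these 9 genes, deficient normal colon was low against wild-type normal colon, where 1.19% of all probes were called lower and 1.01% higher. Anxa8, below background in deficient normal colon, read 11.36 and 12.24 in deficient tumors and 5.95 and 5.80 in deficient normal colon. It read 12.63 and 11.37 in wild-type tumors, with 10.82 and 10.88 in wild-type normal colon. Deficient normal colon was thus the group that stood apart, at least 16.4-fold lower than wild-type normal colon (adjusted p = 0.00293). Il1rn (−2.61, adjusted p = 0.00959) and Anxa3 (−2.19, adjusted p = 0.00805) were also lower there. Between deficient and wild-type tumors the differences of the 3 were −0.20 (Anxa8, adjusted p = 0.781), −0.86 (Il1rn, 0.108) and −0.48 (Anxa3, 0.24), and did not pass. The tumor comparison and this one share the deficient normal arrays, so a low deficient normal colon enters both. Without the second deficient normal array none of the 3 was called lower, and without either wild-type normal array 1 was.

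In other genes of that list the deficient tumors were the high group. Tnfrsf12a read 11.39 and 11.62 in deficient tumors and 8.35 and 8.81 in deficient normal colon, against 9.02 and 9.36 in wild-type tumors, with 9.33 and 9.31 in wild-type normal colon. Between tumors it was 4.97-fold higher in deficient mice (adjusted p = 0.00353), and S100a11, Plaur and Krt7 were higher by 1.61, 1.60 and 1.41 log2 units. These were 4 of 15 genes, against 7.6% of all probes, and none was called lower, against 10.9%. The count was 2 with only the groups compared and otherwise 3 to 6. Tumor differences were unequal between genotypes for 5 of 15, namely Anxa8, Tnfrsf12a, S100a11, Plaur and Anxa3. Each was more positive in deficient mice, as called for 1.55% of all probes. This count was 0 to 2 when an array of either normal group or the second wild-type tumor was left out.

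Between the tumors of the 2 genotypes, 3 of the 8 member probes were higher in deficient mice, namely Yap1 and both tested Ccn1 probes, against 7.6% of all probes. None was lower, against 10.9%. One of the 3, Ccn1 ILMN_1235571, was above background in the deficient tumors alone and entered the test only through them. The arrays of deficient tumors lay above those of wild-type tumors for these 3 and for Anxa2, as for 28% of all probes, and below them for Ccn2, as for 32.3%. Clu, Anxa1 and Ankrd1 overlapped. The differences were −0.09 for Clu, 1.24 for Anxa1 (95% interval −0.91 to 3.38) and −0.01 for Ankrd1 (−0.63 to 0.61). The count of 3 was 1 without the first deficient tumor or with only probes detected on all arrays, and 0 with only the groups compared.

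Between the normal colons no member was called in limma, where 2.19% of all probes were called in either direction. The probes of Clu and Ankrd1 had an unadjusted p under 0.05. Deficient arrays lay below wild-type arrays for Clu, Anxa1, Ccn1 ILMN_1235571, Ccn2 and Ankrd1, as for 26.5% of all probes, and overlapped them for Anxa2, Yap1 and Ccn1 ILMN_2794645. Besides Clu, the differences were −1.29 for Anxa1 (95% interval −3.43 to 0.85, adjusted p = 0.524), −0.65 for Ankrd1 (95% interval −1.26 to −0.03, adjusted p = 0.265) and −0.41 for Ccn2 (95% interval −1.07 to 0.26, adjusted p = 0.516). Ccn1 ILMN_1235571 was below background in both normal groups and in wild-type tumors, so its direction between them is not read. No member passed the test of unequal tumor differences in the 2 genotypes, where 1.55% of all probes were called in limma with the deficient difference more positive. Yap1 and this Ccn1 probe had an unadjusted p under 0.05. Its value for Ccn1 was 1.91 (SE 0.429, adjusted p = 0.0561), and it passed with array weights (0.0457) and without the first wild-type tumor (0.0233), and the interval for Anxa1 was −0.51 to 5.56.

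**Figure D4:**
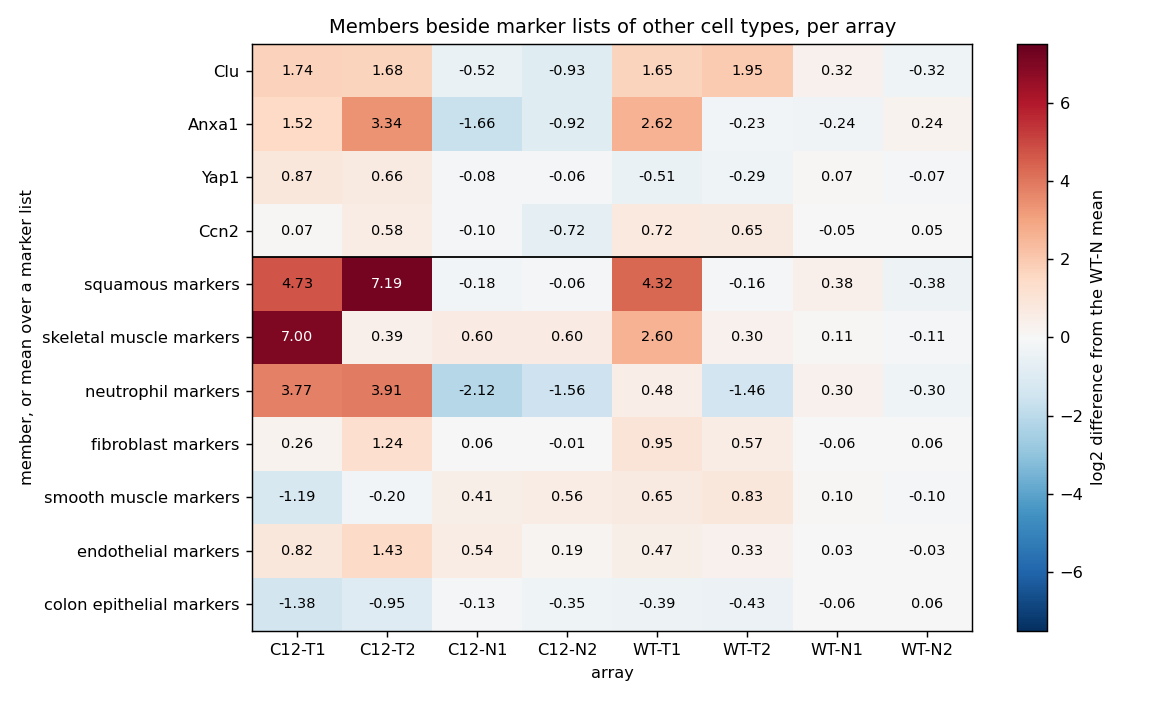
Log2 difference of 4 members, and of the mean over 7 marker lists, from the wild-type normal mean on each array. Anxa1 and the squamous markers are high on the same 3 tumor arrays. Clu is also high on the second wild-type tumor, where list means run from −1.46 (neutrophil) to 0.83 (smooth muscle).

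Markers of other cells moved with the tumor groups as well, where 8.7% of all probes rose and 10.7% fell in deficient tumors. Of 6 tested neutrophil markers 6 rose in deficient tumors, with a mean difference from wild-type normal colon of 3.77 and 3.91 in deficient tumors and −2.12 and −1.56 in deficient normal colon, and 0.48 and −1.46 in wild-type tumors. Of 8 endothelial markers 3 rose (1 of them, Cdh5, above background in the deficient tumors alone), of 7 macrophage markers 2 rose and 1 fell, and of 8 smooth muscle markers 3 fell in deficient tumors. Of 8 colon epithelial markers 1 rose and 3 fell. None of 4 T cell markers was called, nor any of 10 skeletal muscle markers, and both enteric neuron and glia markers tested fell. On the second wild-type tumor array, where Clu was highest at 12.42, squamous markers averaged −0.16 and neutrophil markers −1.46 from wild-type normal colon. Colon epithelial (−0.43) and enteric neuron and glia markers (−0.41) were also lower there. T cell (0.92), smooth muscle (0.83), fibroblast (0.57), macrophage (0.34), endothelial (0.33) and skeletal muscle markers (0.30) were higher. The part of other cell types in the differences of the regenerative genes was not tested.

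Members did not all vary together over the 8 arrays, as a description with no test. Both tested Ccn1 probes went together (r = 0.907), Yap1 went with Ccn1 (r = 0.847 and 0.743) but not with Ccn2 (r = −0.10) or Clu (0.247), and Clu went with Ccn2 (0.848). Anxa1 went with Anxa2 (0.878), and Ccn1 also went with Anxa2 (0.806 and 0.72) and Anxa1 (0.766 and 0.605). Arrays of a group share their tissue and genotype, so the points are not independent. Among 9202 other named genes, the 3 most like Yap1 were Tead2 (r = 0.989), Daxx (0.982) and Tff1 (0.976). Those most like Clu were Dusp2 (0.966), Mfge8 (0.955) and Cma1 (0.951), and those most like Anxa1 were Btc (0.985), Tgfbi (0.982) and Clca2 (0.972). Ccn2 was most like Adamtsl4 (0.973) and the collagens Col16a1 (0.954) and Col6a1 (0.953). The Ccn1 probe ILMN_1235571 was most like Cdca7, Acsl4 and Map4k4 (0.979 to 0.982) and ILMN_2794645 most like Gspt1, Urb2 and Rrs1 (0.979 to 0.988). Anxa2 was most like Osbpl3, Itgav and Sirpb1a (0.942 to 0.978), and Ankrd1 most like Gch1, Frzb and Pkp3 (0.93 to 0.979).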

How the data were processed

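RNA of 8 colon samples was read on Illumina MouseRef-8 v2 arrays, 2 per group. Per the file headers, the deposited table held non-normalized intensity values and a detection p-value per probe and array. The submitters' processing notes name BeadStudio 3.2.7. The deposited series table held log2 values equal to log2 intensity minus the log2 array mean, to within 1.71e-05, and was an alternative only. Intensity columns are numbered, not titled. They were matched to samples through the labels' descriptions, which cross-refer replicates by number, and through the accession-named columns of the series table, which match them in value.

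Intensities were background-corrected, quantile-normalized and put on a log2 scale with neqc (limma 3.58.1, R 4.3.3, offset 16). Of 25697 probes, 13327 had 2 or more arrays with a detection p under 0.01 and were tested. One model with 4 group means was fitted over 8 arrays (lmFit, eBayes, 4 residual degrees of freedom), two-sided, with Benjamini-Hochberg adjustment over all probes and a threshold of 0.05. The step was tested on simulated data. The number of arrays limits the precision. Alternatives covered array weights, background, scaling, filters, a replicate block, the groups fitted and each array left out.

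Members and gene lists were chosen with earlier results of these data known. Named were all member probes, in each list the called genes with the largest differences (up to 4 in each direction, in deficient tumor against normal colon or between normal colons), and the 3 genes most correlated with each member probe. A list gene with several probes was represented by the brightest. Symbols, coordinates and promoters are from the GEO platform annotation and RefSeq (GRCm38.p6).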

Additional observations from a re-analysis of the deposited data

Results flagged for a closer look

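The Yap1 probe ILMN_1248293 differed in opposite directions in the 2 genotypes. Both deficient tumors lay above deficient normal colon (0.84), as for 30.2% of all probes. Both wild-type tumors lay below wild-type normal colon (−0.40), as for 23.3%. The difference between these was 1.243, and its test did not pass (limma, adjusted p = 0.0659, 0.0527 to 0.213 over 17 alternatives).

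The Ccn1 probe ILMN_1235571 was above background in the deficient tumors alone, at least 2.08-fold over wild-type tumors. Its fitted differences between deficient and wild-type mice had opposite signs in tumors and in normal colon, but wild-type tumors and both normal groups were below background, so the sign in normal colon is not read. The fitted difference between these was 1.906, which rests on values below background, and its test did not pass (limma, adjusted p = 0.0561, 0.0233 to 0.168 over 16 alternatives).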

How the results depend on the processing

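Among alternatives that left out no array, member results kept direction and side of the threshold in 415 cases, lost a call in 16, gained one in 4 and turned sign in 11. With 1 array left out the numbers were 333, 32, 4 and 15. Called genes of the lists kept their call in 613 cases and lost it in 69, or in 368 and 216 with 1 array left out, and none turned sign. Among members the sign turned only for differences that had not passed, and the cause was not tested. Members called higher in deficient tumor against normal colon numbered 4, or 1 to 5 with 1 array left out and 3 to 4 otherwise. Between tumors the count of 3 was 1 with only probes detected on all arrays, 0 with only the groups compared and 1 to 3 with 1 array left out. Unequal tumor differences gave 0, then 1 with array weights and 0 to 1 with 1 array left out. Over both genotypes 3 were called, namely Clu, Anxa1 and Ccn1 ILMN_1235571, against 5.43% of all probes. That count was 1 with no filter on dim probes, 1 with the replicate block and 1 to 4 with 1 array left out. The Anxa1 call (limma, adjusted p = 0.0498) was lost in 10 of 17 alternatives and the Ccn1 call (0.0484) in 11 of 16. For both, tumor and normal arrays overlapped, and this Ccn1 probe was above background in the deficient tumors alone. The replicate numbers were not shown to pair samples: same-numbered deviations correlated at −0.031 to 0.161.

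Wild-type tumor minus normal differences turned for Ccn1 ILMN_2794645 to 0.011 without background correction, 0.002 with an offset of 50, 0.014 with cyclic loess and 0.152 with series values (−0.758 to 0.674 with 1 array left out). They turned for Anxa2 to −0.194 with median scaling (−0.099 to 0.368), for Ccn1 ILMN_1235571 to 0.02 with series values (−0.579 to 0.308) and for Ankrd1 to 0.03 with series values. Anxa1 ranged from −0.228 to 2.619 with 1 array left out. Between normal colons Yap1 turned to 0.009 with series values, and Anxa2 ranged from −0.369 to 0.031. Between tumors Ankrd1 turned to 0.008 (median scaling), 0.057 (cyclic loess) and 0.036 (series values) (−0.256 to 0.231), Clu ranged from −0.237 to 0.068 and Anxa1 from −0.188 to 2.66. Unequal tumor differences of Ccn2 ranged from −0.261 to 0.361, and the difference of Ankrd1 over both genotypes from −0.003 to 0.24.

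Over all probes, 2581 calls in deficient mice became 950 or 809 without the first or second deficient normal array and 1549 without the first deficient tumor. Of those calls 44.9% were higher, against 55.8% with series values. Over both genotypes the share was 45%, against 34.7% with median scaling and 60.1% with series values. Other counts of calls also moved over 1.5 times: 0 in wild-type mice was 105 without the second wild-type tumor, 292 between normal colons was 38 to 641, 2461 between tumors was 765 to 2561, 521 unequal differences was 23 to 1141, and 1609 over both genotypes was 444 to 2499. Median scaling moved the median of all probes to −0.10 in deficient and −0.13 in wild-type mice, and series values to 0.11 and 0.12. The probes of Ankrd1 and Ccn1 were below background on several arrays, which limits what their differences show.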

Other observations

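Wnt target and stem cell genes were also higher in deficient tumors: 5 of 7 tested rose against deficient normal colon and none fell. Among all probes, 8.7% were called higher and 10.7% lower in this comparison. Ascl2 and Rnf43 were above background in the deficient tumors alone, and Lgr5 there and on 1 wild-type normal array, so these 3 entered the test only through the group where they are high and the count is a description. Axin2, a feedback inhibitor of Wnt signalling, differed by 3.46 (adjusted p = 0.0143). Lgr5, which marks crypt base stem cells, was at least 4.64-fold higher (adjusted p = 0.00822), Ascl2, a stem cell transcription factor, at least 2.07-fold (adjusted p = 0.0075) and Rnf43, which removes Wnt receptors, at least 1.68-fold (adjusted p = 0.0322), all in limma. The count was 0 without the first deficient normal array, 1 without the second, 3 without either wild-type normal array or the first deficient tumor and 2 with only probes detected on all arrays.

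Of 10 tested immediate early genes, which respond within minutes to growth signals and stress, 3 rose and none fell in deficient tumors. The other 7 did not pass. The median difference of the 10 was 0.27, against −0.02 over all probes, of which 8.7% were called higher and 10.7% lower. Ier3 read 14.00 and 12.89 in deficient tumors and 10.59 and 10.58 in deficient normal colon, against 10.90 and 10.37 in wild-type tumors, with 11.03 and 10.62 in wild-type normal colon (difference in deficient mice 2.86, adjusted p = 0.00371). Junb differed by 1.13 (adjusted p = 0.0107) and Dusp1 by 1.02 (adjusted p = 0.0315), both in limma. Without the second deficient normal array only 1 of the 3 was called.

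The other 2 CCN genes measured did not pass. Under median scaling, cyclic loess, series values, only probes detected on all arrays or the replicate block 1 of them passed, and without the first deficient tumor 2 did. Ccn5 read 6.28 and 9.39 in deficient tumors and 5.64 and 6.13 in deficient normal colon, against 7.63 and 7.65 in wild-type tumors, with 5.96 and 5.76 in wild-type normal colon. It was above background on the second deficient tumor and both wild-type tumors alone (adjusted p = 0.146 in deficient mice, limma). Ccn4, above background on every array, differed by 1.19 in deficient mice (adjusted p = 0.0543).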
